A study of Mus musculus with 6 samples.

Results

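The genes described here are 44 interferon-stimulated genes, a group of antiviral and immune genes that are induced together in most cell types exposed to interferon. They were listed by gene name, and all 44 were found among the 55421 genes measured. RNA-seq was done on splenic B cells that had been activated in culture for 1 day with the bacterial lipopolysaccharide LPS and the cytokine IL-4, from 3 WT and 3 hnRNPL-deficient mice, and asked which genes change when B cells activate without the RNA-binding protein hnRNPL. WT cells came from mice with *CD21-cre* and the *Rosa mT/mG* reporter, and hnRNPL-deficient cells came from mice that had *Hnrnpl F/F* in addition, so both groups carried the Cre transgene, the reporter, the LPS and IL-4 treatment and a C57BL6/J background. Mice of both sexes, older than 6 weeks, were used. *CD21-cre* acts in mature B cells, and only GFP+ cells, in which Cre had been active, were sorted and sequenced. Deletion therefore came late in B cell maturation. No cells were treated with interferon in these 6 libraries and no resting cells are among them, so each level below is that of an LPS and IL-4 activated B cell.

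Type I interferons bind the receptor chains IFNAR1 and IFNAR2, and the attached kinases JAK1 and TYK2 phosphorylate transcription factors of the STAT family. The complex ISGF3, to which STAT2 and IRF9 belong, then binds the interferon-stimulated response element (ISRE) in the promoters of target genes. Type II interferon works through its own receptor and acts at gamma-activated sites (GAS). LPS is sensed by TLR4, a receptor that can itself start interferon production. The proteins that the 44 genes encode sense viral nucleic acids, block viral translation, degrade RNA, tag proteins with ISG15, attack pathogen vacuoles or pass the signal on.

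Reads assigned to genes ranged from 40395186 to 75180749 per library, and all 44 genes had reads in all 6 libraries. Values are normalized counts, that is, reads per gene divided by a size factor of the library. *Hnrnpl* itself stood at 24371, 25580 and 24174 normalized counts in WT libraries and at 2178, 1519 and 1297 in hnRNPL-deficient libraries, 6.74% of the WT mean. Genes that mark B cells summed to between 290507 and 371955 normalized counts in WT libraries and between 285676 and 340862 in hnRNPL-deficient libraries, with all 8 markers detected. Plasmacytoid dendritic cells, which are strong interferon producers, could have contributed to a spleen culture, and their markers *Siglech*, *Clec4b1* and *Klk1* were at 0 in every library, while the list of 6 summed to 413 to 506 in WT and to 225 to 285 in hnRNPL-deficient libraries. Of the detected members, *Pacsin1* was called lower (423 ± 42.7 to 126 ± 43.8, SD, n = 3) and *Cox6a2* higher (22.5 ± 8.08 to 108 ± 29.3). The macrophage and monocyte list summed to 244 to 320 in WT and to 1221 to 1378 in hnRNPL-deficient libraries. Of its 9 markers, 8 were under 10 normalized counts in all libraries, *C1qa*, *C1qb* and *C1qc* were at 0, and the sum was almost all *Adgre1*. *Adgre1* was called higher (278 ± 39.9 to 1308 ± 80.1), also in 18 of 18 alternative settings. T cell markers summed to at most 241 in WT and 394 in hnRNPL-deficient libraries, and neutrophil markers to at most 6.88 in any library. Of the T cell markers only *Cd8b1* was called, lower (28.9 ± 3.34 to 8.38 ± 5.88). *Cr2* of the B cell list was called higher, as were *Prf1* (NK cells), *Xcr1* (conventional dendritic cells) and *Mfge8* (follicular dendritic cells). *Jchain* of the plasma cell list was called lower (84.1 ± 50.4 to 14.7 ± 8.23). What part these markers have in the results was not tested. WT library 3 and hnRNPL-deficient library 2 had high *Xist* (98507 and 98219 normalized counts) and the others at most 7.21, so each group held 1 such library. With the *Xist* level as a covariate, 11 of the 44 genes were called lower and 2 higher, as many as without it. In bulk RNA, fewer cells that express a gene and less RNA per cell cannot be told apart.

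In hnRNPL-deficient B cells 32 of the 44 interferon-stimulated genes had a lower mean on the log2 scale and 12 a higher one. Of all 17640 genes tested, 9304 had a lower mean and 8336 a higher one. A minority of the 44 fell enough to be called, by as much as 68.8% for *Oasl2*, and very few rose enough. By limma on log2(normalized count + 1), with Benjamini-Hochberg adjustment over all 17640 genes tested, a gene was called at an adjusted p under 0.1 and a change of at least 1.5-fold. Of the 44 genes, 11 were called lower (25%), whereas 4.08% of all genes tested were. These 11 were *Oasl2*, *Cxcl10*, *Isg15*, *Ifit1*, *Oasl1*, *Rsad2*, *Ifih1*, *Dhx58*, *Oas3*, *Ifi47* and *Zbp1*. Only *Irf7* and *Ifi44* were called higher (4.55%), against 7.28% of all genes tested. At any size of change, 15 of the 44 had an adjusted p under 0.1 in the lower direction, against 7.97% of all genes, and 2 in the higher direction, against 10.0% of all genes.

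The genes did not move as a block. The median log2 fold change of the 44 was -0.21, against -0.027 over all genes tested, and single genes ranged from -1.75 to 1.39. In 20 genes all 3 hnRNPL-deficient values lay below all 3 WT values (45.5%, against 16.3% of all genes tested). In 5 genes they lay above (11.4%, against 17.7%), and in 19 the groups overlapped. Relative to each gene's WT mean, the median gene lay at -0.0036, 0.063 and -0.054 in WT libraries 1, 2 and 3 and at -0.29, -0.16 and -0.13 in hnRNPL-deficient libraries 1, 2 and 3 on the log2 scale. Each hnRNPL-deficient library thus sat below each WT library by this measure, although by little next to the changes of single genes. Without hnRNPL-deficient library 3 the median of the 44 was -0.33. An exact two-sided permutation test of a single gene cannot go below p = 0.1 with 3 against 3 libraries, so all p-values below come from the limma fit across genes.

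**Figure D1:**
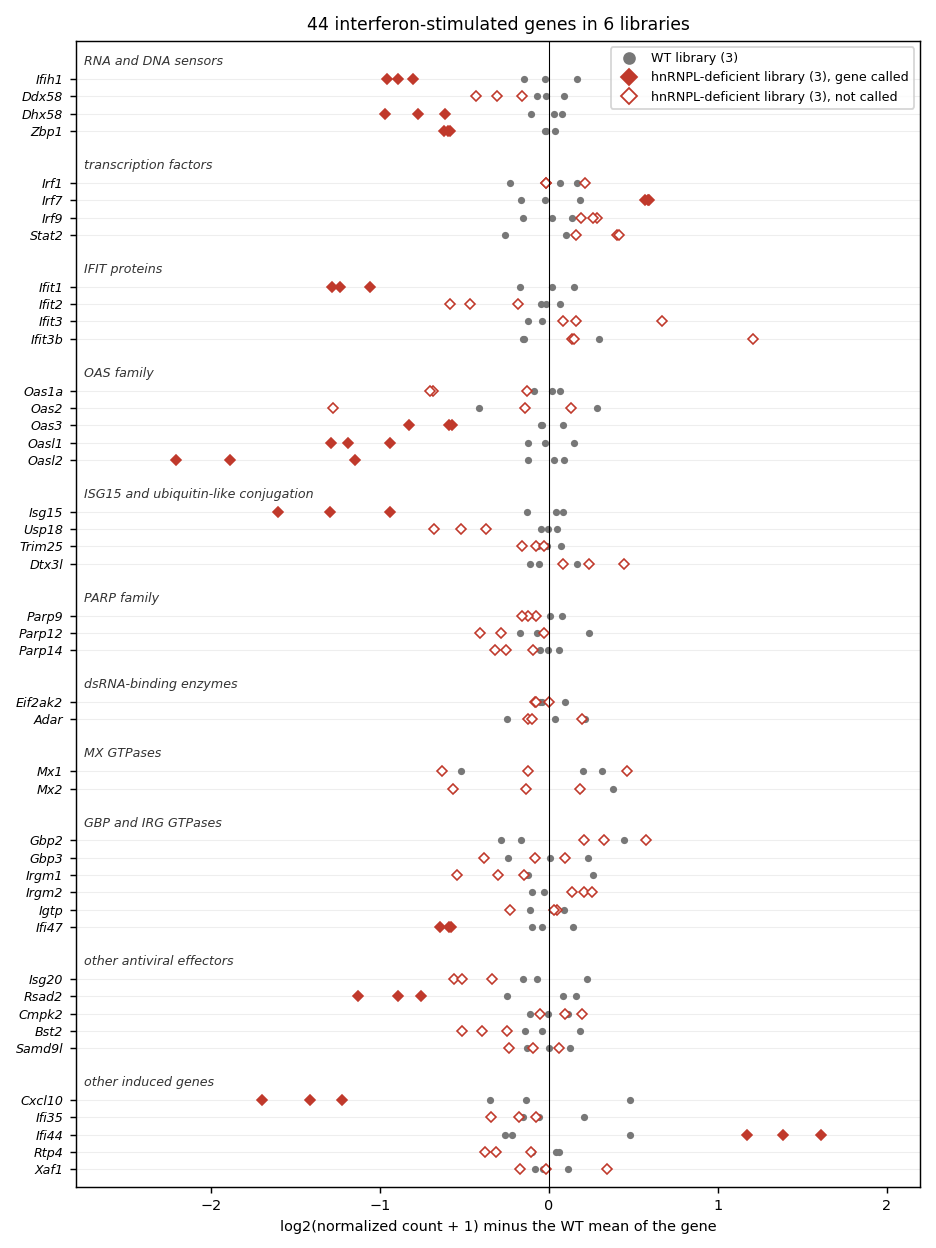
Each of the 44 genes in the 6 libraries, as log2(normalized count + 1) minus the gene's WT mean. Grey circles are WT libraries, red diamonds hnRNPL-deficient libraries, filled where the gene was called. The 11 genes called lower lie wholly to the left of the WT points, *Irf7* and *Ifi44* wholly to the right, and within most families called genes stand beside genes whose points overlap.

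The promoters show what the called genes share with the others. RefSeq promoter windows on GRCm38.p6, from 250 bases before to 50 after the transcription start, were at hand for 35 of the 44 genes, and each was searched on both strands for the core ISRE letters GAAANNGAAA, which read TTTCNNTTTC on the opposite strand. They occurred in 18 of the 35 (51.4%), against 3.99% of all 27025 genes with a window. GAS letters, TTCNNNGAA, occurred in 10 of 35 (28.6%), against 9.55% of all genes. Among the genes called lower, 6 of 9 with a window held the ISRE letters, and *Oasl1*, *Oasl2* and *Ifi47* did not. Among the genes not called, 12 of 24 held them. Neither *Irf7* nor *Ifi44*, the genes called higher, held them. GAS letters were in 10 of the 24 windows of genes not called and in 0 of the 9 windows of genes called lower. With 9 windows and a share of 9.55% over all genes, a count of 0 does not set the genes called lower apart from all genes. These are matches of letters, not measured binding.

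The following stretches of 100 bases upstream of the start are written 5′ to 3′ along the gene, with the ISRE letters in capitals, because they set 5 genes called lower beside a gene whose groups overlapped and a gene whose 3 hnRNPL-deficient values all lay above WT. *Ifit1* (chr19:34640749-34640848, plus strand), *Isg15* (chr4:156200836-156200935, minus strand), *Oas3* (chr5:120777680-120777779, minus strand), *Rsad2* (chr12:26456518-26456617, minus strand) and *Cxcl10* (chr5:92349040-92349139, minus strand) were called lower. *Ifit3* (chr19:34583345-34583444, plus strand) overlapped between the groups, and *Irgm2* (chr11:58214868-58214967, plus strand) had all 3 hnRNPL-deficient values above WT. *Ifit1* and *Ifit3* each carry a pair of matches, and the 3 overlapping matches of *Isg15* form a continuous run.
Ifit1: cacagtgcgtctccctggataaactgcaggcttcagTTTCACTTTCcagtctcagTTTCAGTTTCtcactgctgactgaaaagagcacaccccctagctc
Isg15: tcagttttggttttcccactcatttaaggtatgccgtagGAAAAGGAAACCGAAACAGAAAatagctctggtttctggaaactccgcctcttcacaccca
Oas3: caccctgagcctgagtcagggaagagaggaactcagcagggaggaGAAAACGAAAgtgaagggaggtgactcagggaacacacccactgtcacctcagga
Rsad2: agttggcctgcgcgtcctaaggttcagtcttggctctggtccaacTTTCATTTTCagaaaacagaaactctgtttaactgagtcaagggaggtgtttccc
Cxcl10: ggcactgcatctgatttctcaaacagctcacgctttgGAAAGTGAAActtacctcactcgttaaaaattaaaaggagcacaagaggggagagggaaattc
Ifit3: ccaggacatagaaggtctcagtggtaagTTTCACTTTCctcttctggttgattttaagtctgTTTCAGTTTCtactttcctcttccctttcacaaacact
Irgm2: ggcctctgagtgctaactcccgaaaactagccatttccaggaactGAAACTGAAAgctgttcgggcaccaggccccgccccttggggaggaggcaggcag
The stretch of *Ifit3b* matched that of *Ifit3* at 100 of 100 bases.

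**Figure D2:**
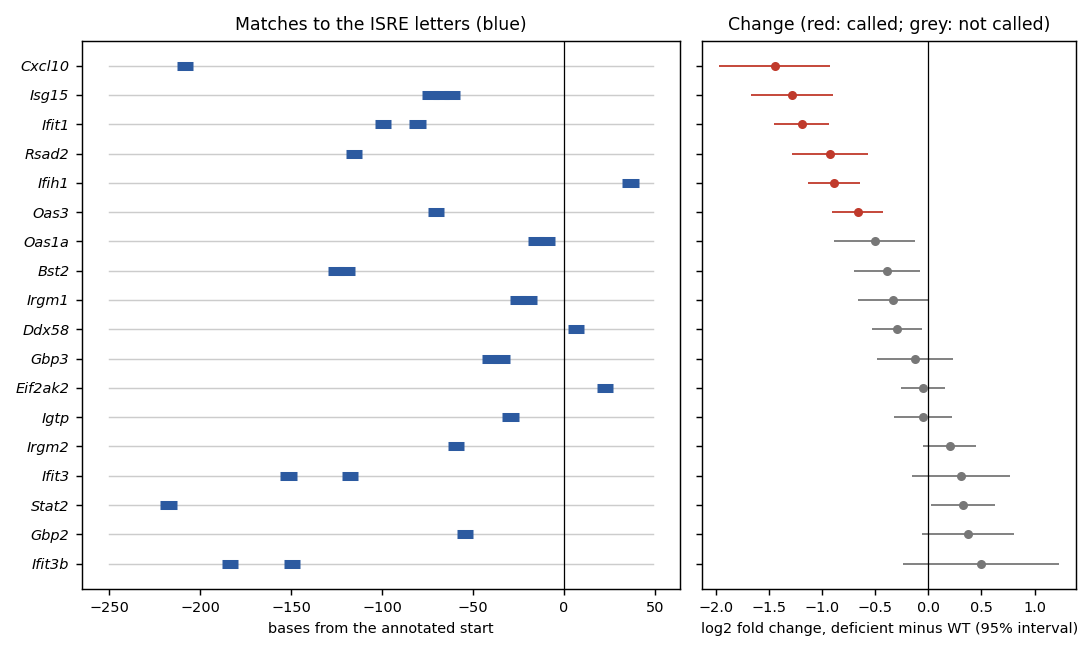
Left, where the ISRE letters lie relative to the transcription start (x axis, in bases) in the 18 genes whose promoter window holds them. Right, the log2 fold change of the same genes, hnRNPL-deficient minus WT, with its 95% interval. Matches lie upstream of the start in all but *Ifih1*, *Ddx58* and *Eif2ak2*, where they lie after it, and genes called lower (red) and genes not called (grey) share the same range of positions.

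Of the sensors of viral nucleic acid, 3 of 4 were called lower. *Ifih1* encodes MDA5, which binds long viral RNA, *Dhx58* encodes its regulator LGP2, *Ddx58* encodes RIG-I, which binds RNA ends, and *Zbp1* encodes a sensor of Z-form nucleic acid. In each of the 4 genes all hnRNPL-deficient values lay below all WT values, and the median log2 fold change of the family was -0.69. *Ifih1* (chr2:62595798-62646255, minus strand, GRCm38, as are all positions given) had 11075, 9710.5 and 8906 normalized counts across WT and 5635, 5307 and 5078 across hnRNPL-deficient libraries. The means, 9897 ± 1096 and 5339.9 ± 279.7 (SD, n = 3), differed by 46.0%, a log2 change of -0.89 ± 0.107 (SE, adjusted p = 0.00218). *Dhx58* (chr11:100694884-100704271, minus strand) read 3217, 3656 and 3532 in WT libraries and 2020.4, 2259 and 1768 in hnRNPL-deficient cells, 41.9% lower, with a log2 change of -0.79 ± 0.118 (SE, adjusted p = 0.00521). The highest deficient value of each of these genes was well under the lowest WT value.

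*Zbp1* (chr2:173206612-173218923, minus strand) had the tightest replicates of the family, at 5876, 5652 and 5647 normalized counts in WT libraries and 3726, 3814 and 3779 without hnRNPL. Its level was 34.1% lower, a log2 change of -0.60 ± 0.0844 (SE, adjusted p = 0.00396). That is just past the 1.5-fold limit (0.585 on the log2 scale), and it was called in 13 of 18 alternative settings. Leaving out WT library 1 took it below the limit (-0.58). *Ddx58* read 8961, 8306 and 7999 in WT libraries and 6806, 6241 and 7548 across hnRNPL-deficient libraries, a log2 change of -0.30 (95% interval -0.53 to -0.062, adjusted p = 0.104). The change of *Ddx58* was smaller than that of *Ifih1*, a difference that was not tested. The number of *Ifih1* counts per *Ddx58* count was 1.24, 1.17 and 1.11 in WT and 0.828, 0.850 and 0.673 in hnRNPL-deficient libraries. This ratio and the ratios of other gene pairs given below were picked after the values were seen and are descriptions without a test.

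None of the transcription factors was called lower. *Stat2* and *Irf9* encode components of ISGF3, *Irf1* encodes an early factor of the interferon gamma response, and *Irf7* encodes the factor that amplifies production of interferon alpha. All 4 had a higher mean in hnRNPL-deficient cells, a direction that *Irf1* did not keep under every alternative, and in *Irf7*, *Irf9* and *Stat2* the groups did not overlap. *Irf7* (chr7:141262706-141266481, minus strand) had 1174, 1497 and 1295 normalized counts across WT and 1979.8, 1988 and 1955 across hnRNPL-deficient libraries. The mean rose from 1322 ± 163 to 1974 ± 17.4 (SD, n = 3), a ratio of means of 1.49 and a log2 change of 0.59 ± 0.117 (SE, adjusted p = 0.0171). The 3 hnRNPL-deficient values were almost equal, and on the log2 scale the change stood at the limit for a call (0.585), and the gene was called in 12 of 18 alternative settings. Leaving out libraries 1 or 3 of WT or libraries 1 or 2 of the hnRNPL-deficient group each took it below the limit, with log2 changes of 0.50, 0.57, 0.58 and 0.58.

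*Stat2*, with the highest mean of this family, read 3929, 5051 and 5225 in WT libraries and 5255, 6210.3 and 6257 without hnRNPL, a log2 change of 0.33 (95% interval 0.021 to 0.63, adjusted p = 0.157). *Irf9* read 3284, 4026 and 3699.8 in WT libraries and 4180.5, 4453 and 4381 without hnRNPL, with a change of 0.25 (95% interval 0.0084 to 0.48, adjusted p = 0.169). Neither was called, although both intervals lie above 0. *Irf1* overlapped between the groups, with a log2 change of 0.061 (95% interval -0.25 to 0.37, adjusted p = 0.809). Relative to *Irf9*, *Irf7* stood at 0.358, 0.372 and 0.350 in WT and at 0.474, 0.446 and 0.446 in hnRNPL-deficient libraries.

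The IFIT genes lie side by side on chromosome 19 and encode proteins that bind viral RNA and block its translation. Of 4 members, 1 was called lower. *Ifit1* (chr19:34640871-34650009, plus strand), which binds RNA lacking the host type of cap, had 8114, 7408 and 6507 normalized counts across WT and 3007, 3102 and 3514 across hnRNPL-deficient libraries. It fell by 56.3%, from 7343 ± 806 to 3208 ± 269.9 (SD, n = 3), a log2 change of -1.19 ± 0.114 (SE, adjusted p = 8.08e-04). *Ifit2* (chr19:34550694-34576419, plus strand) read 2697, 2912 and 2749 in WT libraries and 2011, 1859 and 2456 without hnRNPL, 24.3% lower. All hnRNPL-deficient values of *Ifit2* were below those of WT and its adjusted p passed, with a log2 change of -0.41 ± 0.123 (SE, adjusted p = 0.0662), but the fold was under the limit for a call.

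*Ifit3* and *Ifit3b*, its near copy, were not called. *Ifit3* read 229, 279 and 242 in WT libraries and 264, 279 and 397 across hnRNPL-deficient libraries, a log2 change of 0.31 (95% interval -0.16 to 0.77, adjusted p = 0.370). *Ifit3b* read 97.5, 133 and 97.9 in WT libraries and 119, 120.1 and 252 without hnRNPL, with a change of 0.50 (95% interval -0.24 to 1.23, adjusted p = 0.357). In both, hnRNPL-deficient library 3 was the highest of the 6. Of all stretches of 100 bases in their transcripts, 31.7% of those of *Ifit3* also occur in *Ifit3b*, and 27.4% in the reverse direction, so their counts are uncertain. Per count of *Ifit3*, *Ifit1* had 35.5, 26.5 and 26.8 counts in WT and 11.4, 11.1 and 8.84 in hnRNPL-deficient libraries, and per count of *Ifit2* it had 3.01, 2.54 and 2.37 in WT and 1.49, 1.67 and 1.43 without hnRNPL.

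The oligoadenylate synthetases make a small messenger in response to viral RNA that leads to RNA decay, and the OAS-like proteins share their fold. All 5 members had a lower mean in hnRNPL-deficient cells, under every alternative, 3 were called lower, and the family's median log2 fold change was -0.66. *Oasl2* (chr5:114896936-114912234, plus strand) showed the largest fall among the 44 genes. It had 1484, 1653 and 1722 normalized counts across WT and 349, 436 and 731 across hnRNPL-deficient libraries, 68.8% lower and a log2 change of -1.75 ± 0.245 (SE, adjusted p = 0.00390). hnRNPL-deficient library 3 was the highest of its group, still under every WT library. Its neighbour *Oasl1* (chr5:114923240-114937915, plus strand), which encodes an inhibitor of IRF7 translation, read 11102, 13379 and 11894 in WT libraries and 4954, 6296 and 5309.9 without hnRNPL. The mean of *Oasl1* fell by 54.5%, from 12125 ± 1156 to 5520.0 ± 695 (SD, n = 3), a log2 change of -1.14 ± 0.120 (SE, adjusted p = 0.00123).

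On another stretch of the same chromosome, *Oas3* (chr5:120753098-120777661, minus strand) read 5472, 5034 and 5013 in WT libraries and 2912, 3478 and 3436 across hnRNPL-deficient libraries, a log2 change of -0.66 ± 0.105 (SE, adjusted p = 0.00666). The groups were well apart, though the fold fell under the limit (-0.58) when hnRNPL-deficient library 1 was left out. *Oas1a* read 1526, 1639 and 1696 in WT libraries and 1006, 1483 and 992 without hnRNPL, a log2 change of -0.51 ± 0.165 (SE, adjusted p = 0.0875). It was not called because its fold was under the limit. hnRNPL-deficient library 2 lay close to the lowest WT library, and without it *Oas1a* was called at a log2 change of -0.70. Of the stretches of 100 bases in *Oas1a* transcripts, 40.9% also occur in *Oas1g*, so its count is uncertain. *Oas2* overlapped between the groups, at 489, 709 and 792 in WT libraries and 268, 589.6 and 711 without hnRNPL, with a log2 change of -0.43 (95% interval -1.23 to 0.37, adjusted p = 0.466).

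*Isg15* encodes a ubiquitin-like protein that is attached to other proteins, *Usp18* encodes the protease that removes it and that also dampens IFNAR signalling, and *Trim25* and *Dtx3l* encode ubiquitin ligases. *Isg15* (chr4:156199424-156200818, minus strand) had 2206, 2273 and 1961 normalized counts across WT and 874, 1116 and 703 across hnRNPL-deficient libraries. Its mean fell by 58.2%, from 2147 ± 164 to 897 ± 207 (SD, n = 3), a log2 change of -1.28 ± 0.169 (SE, adjusted p = 0.00314). hnRNPL-deficient library 2, the highest of its group, was still far under the lowest WT library. *Usp18* (chr6:121245906-121270917, plus strand) read 2105, 2185 and 2043 in WT libraries and 1318, 1474 and 1629.7 without hnRNPL, a log2 change of -0.52 ± 0.112 (SE, adjusted p = 0.0220), with no overlap but under the limit of fold. Without hnRNPL-deficient library 3 it was called, at -0.60.

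Per count of *Usp18*, *Isg15* had 1.05, 1.04 and 0.960 counts in WT and 0.663, 0.757 and 0.431 in hnRNPL-deficient libraries. *Dtx3l*, the most abundant of this group over the 6 libraries, read 11062, 9481 and 9139 in WT libraries and 13406, 10437 and 11641 without hnRNPL, a log2 change of 0.25 (95% interval -0.025 to 0.54, adjusted p = 0.221). Its groups overlapped. *Trim25* changed by -0.088 (95% interval -0.29 to 0.12, adjusted p = 0.560).

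**Figure D3:**
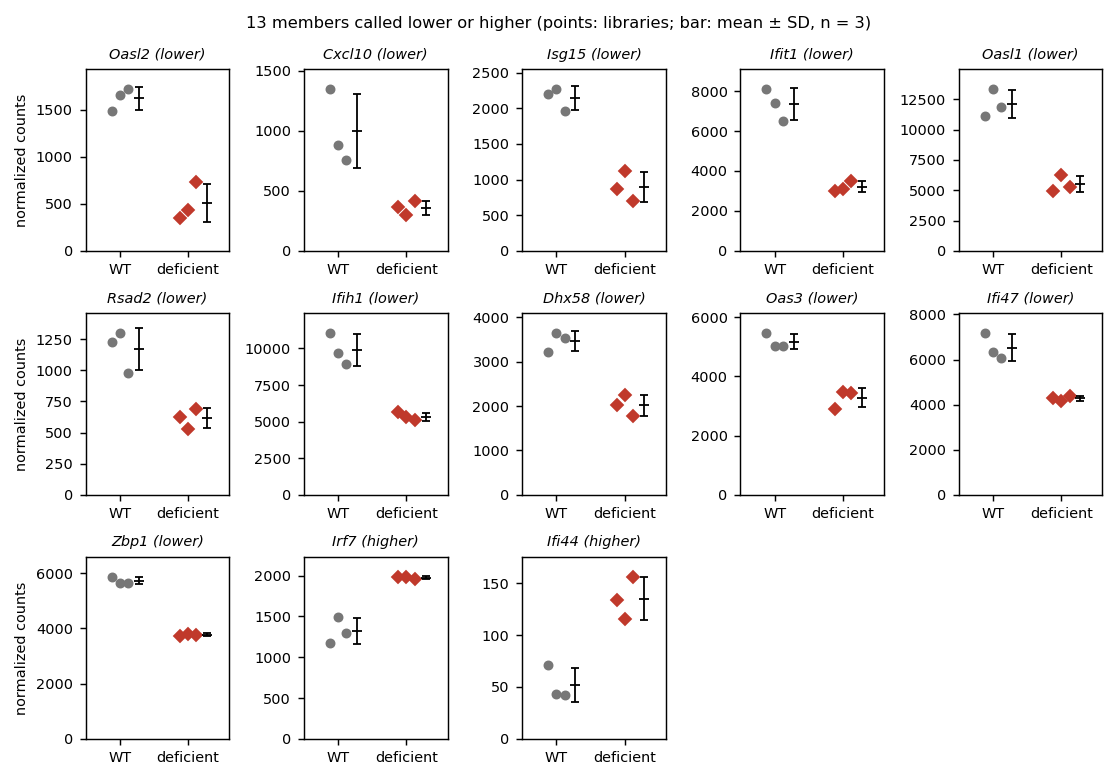
Normalized counts of the 13 genes called lower or higher, with a point for each library in order of replicate number from left to right and a bar for the mean ± SD (n = 3). Each y axis starts at 0, and in every panel the hnRNPL-deficient points (red) are apart from the WT points (grey).

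The PARP family attaches ADP-ribose to proteins, and none of its 3 members was called. *Parp14* (chr16:35832874-35871544, minus strand), the most abundant of the 44 genes by normalized count, read 27656, 28984 and 26780.2 in WT libraries and 23310.3, 22315 and 25999.8 without hnRNPL. The groups did not overlap, but the log2 change was only -0.22 (95% interval -0.45 to 0.0027, adjusted p = 0.187). *Parp9*, whose protein works in a complex with DTX3L, changed by -0.12 (95% interval -0.32 to 0.086, adjusted p = 0.433), and *Parp12* by -0.24 (95% interval -0.68 to 0.20, adjusted p = 0.459). The number of *Parp9* counts per *Dtx3l* count was 0.619, 0.687 and 0.671 in WT and 0.460, 0.570 and 0.50 in hnRNPL-deficient libraries, with no overlap.

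Neither of the dsRNA-binding enzymes was called. *Adar*, which edits adenosine in dsRNA, read 7962, 10958 and 9687 in WT libraries and 8689, 10847 and 8821 across hnRNPL-deficient libraries, a log2 change of -0.0079 (95% interval -0.33 to 0.32, adjusted p = 0.978) whose sign turned in 6 of 18 alternative settings. *Eif2ak2* encodes PKR, which halts translation on meeting dsRNA, and changed by -0.052 (95% interval -0.26 to 0.15, adjusted p = 0.743). Both intervals lie within the limit of fold for a call, on either side of 0. The MX GTPases trap viral capsids, although C57BL/6 mice carry a defective *Mx1*. *Mx1* read 475, 845 and 783 in WT libraries and 438, 625 and 939 without hnRNPL, a log2 change of -0.096 (95% interval -0.79 to 0.60, adjusted p = 0.864), and *Mx2* changed by -0.17 (95% interval -0.80 to 0.45, adjusted p = 0.723). The spread between replicates of *Mx1* was wide enough that its interval reaches past 1.5-fold in each direction. Per count of *Mx2* there were 1.11, 1.03 and 1.09 counts of *Mx1* in WT and 1.03, 1.09 and 1.31 in hnRNPL-deficient libraries. This ratio overlapped between the groups.

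The GBP and IRG GTPases assemble on the vacuoles of intracellular pathogens and are induced above all by interferon gamma. Of 6 members, 1 was called. *Ifi47* (chr11:49076587-49096974, plus strand) read 7189, 6315 and 6064 in WT libraries and 4312, 4159.7 and 4361 across hnRNPL-deficient libraries, 34.4% lower, a log2 change of -0.61 ± 0.0979 (SE, adjusted p = 0.00718). The 3 hnRNPL-deficient values were close together and under each WT value, and the fold stood near the limit, with a call in 12 of 18 alternative settings. Without WT library 1, the highest of its group, the change was -0.53 and not a call.

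*Irgm1* (chr11:48861968-48871683, minus strand), the most abundant of this family, read 13803, 10567 and 10456 in WT libraries and 9326, 7883 and 10394 without hnRNPL, a log2 change of -0.33 (95% interval -0.66 to -0.0019, adjusted p = 0.180). WT library 3 and hnRNPL-deficient library 3 nearly met. *Gbp2* had a higher mean without hnRNPL, at 8164, 5359 and 4935 in WT libraries and 8936, 6937 and 7514 in those without hnRNPL, but WT library 1 lay above 2 of the 3 hnRNPL-deficient libraries and the change was 0.37 (95% interval -0.062 to 0.80, adjusted p = 0.248). *Irgm2* changed by 0.20 (95% interval -0.048 to 0.45, adjusted p = 0.277) with all hnRNPL-deficient values above WT, *Gbp3* by -0.12 (95% interval -0.48 to 0.24, adjusted p = 0.647) and *Igtp* by -0.05 (95% interval -0.32 to 0.22, adjusted p = 0.821). *Irgm2* and *Igtp* overlap on the same strand of chromosome 11, for 4.39% and 8.01% of their exon length, so their counts are uncertain. So is that of *Ifi47*, since 4.49% of its exon length lies under another gene on the same strand.

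The other antiviral effectors include a pair of neighbours of which 1 was called. *Rsad2* (chr12:26442746-26456452, minus strand) encodes viperin, which makes a chain-terminating nucleotide from CTP, and *Cmpk2* (chr12:26469204-26479837, plus strand), next to it and transcribed away from it, encodes a nucleotide kinase that can supply CTP. *Rsad2* read 1231, 1302 and 981 in WT libraries and 627, 530.1 and 688 across hnRNPL-deficient libraries. It fell by 47.5%, from 1172 ± 169 to 615 ± 79.6 (SD, n = 3), a log2 change of -0.93 ± 0.157 (SE, adjusted p = 0.00855). *Cmpk2* overlapped, at 1186, 1287 and 1102 in WT libraries and 1271, 1145 and 1362 without hnRNPL, a log2 change of 0.079 (95% interval -0.19 to 0.35, adjusted p = 0.704). Per count of *Cmpk2* there were 1.04, 1.01 and 0.890 counts of *Rsad2* in WT and 0.493, 0.463 and 0.505 in hnRNPL-deficient libraries.

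*Isg20*, which encodes an RNA exonuclease, read 2121, 2757 and 2249.8 in WT libraries and 1600.2, 1871 and 1654 without hnRNPL. All its hnRNPL-deficient values were under WT and its adjusted p passed, at a log2 change of -0.47 ± 0.129 (SE, adjusted p = 0.0510), below the limit of fold. *Bst2* encodes tetherin, which holds budding virions on the cell, and changed by -0.39 (95% interval -0.70 to -0.075, adjusted p = 0.109) with no overlap between groups. *Samd9l*, the most abundant of this group and an inhibitor of translation, read 15609, 14285 and 13077 in WT libraries and 13416, 12114 and 14928 without hnRNPL. Its groups overlapped, with a log2 change of -0.088 (95% interval -0.35 to 0.17, adjusted p = 0.650) that turned sign in 3 of 18 alternative settings.

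Among the remaining genes the chemokine *Cxcl10* (chr5:92346638-92348889, minus strand), which attracts activated T cells, had 1349.7, 882 and 760.1 normalized counts across WT and 362, 297 and 414 across hnRNPL-deficient libraries. Its mean fell by 64.1%, from 997 ± 311 to 358 ± 58.7 (SD, n = 3), a log2 change of -1.45 ± 0.228 (SE, adjusted p = 0.00646). WT library 1 was well above WT libraries 2 and 3, and the groups did not overlap. *Ifi44* (chr3:151730922-151749960, minus strand) was called higher and was also the least abundant of the 44 genes, at 70.8, 43.2 and 42.1 normalized counts in WT libraries and 133, 115 and 156 without hnRNPL. It was 2.59 times the WT mean, a log2 change of 1.39 ± 0.28 (SE, adjusted p = 0.0173), and was called in 18 of 18 alternative settings.

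*Xaf1*, a pro-apoptotic gene and the most abundant of these 5, overlapped at 2869, 2506 and 2595 in WT libraries and 2624, 2352 and 3373 without hnRNPL, a log2 change of 0.053 (95% interval -0.27 to 0.38, adjusted p = 0.839). *Rtp4*, a receptor chaperone, changed by -0.26 (95% interval -0.52 to -0.0076, adjusted p = 0.171) with no overlap between the groups, and *Ifi35* by -0.20 (95% interval -0.49 to 0.091, adjusted p = 0.352). The count of *Rtp4* is uncertain, since 13.9% of its exon length lies under another gene on the same strand and 9.28% of its stretches of 100 bases occur in *Gm45338*. Of all 44 genes, 31 were not called, and their log2 changes had a median of -0.096. For 27 of the genes not called the adjusted p was at least 0.1.

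Per kilobase of exon, with all annotated exons of a gene merged, the order of the genes changed between the groups. In normalized counts per kilobase of exon, *Oasl1* was the highest of the 44 in WT, at 4649 ± 443 (SD, n = 3), followed by *Parp14* at 2988 ± 119, *Isg15* at 2839.5 ± 217 and *Ifit1* at 2765 ± 303. *Oasl1* was apart from the rest, and the next 3 lay within their spread of each other. In hnRNPL-deficient cells *Oasl1* came 4th at 2117 ± 267, *Ifit1* 13th at 1208 ± 102 and *Isg15* 14th at 1187 ± 274. *Gbp2*, 7th in WT at 2445 ± 698, was then first at 3098 ± 409, ahead of *Parp14* at 2566 ± 205. Neither *Gbp2* nor *Parp14* was called. *Ifi44* was last in both groups, at 8.49 ± 2.65 and 22.0 ± 3.36, so the rise of *Ifi44* took place at a level under that of every gene called lower.

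The genes that bring the interferon signal to these targets were read from a separate list. Of 21 interferon genes, 14 had no read in any library and the other 7 together had 37 reads across the 6 libraries. *Ifnb1*, the first type I interferon made in most cells, had 0, 1 and 1 reads in WT and 0, 0 and 0 in hnRNPL-deficient libraries. *Ifna4* had 6, 6 and 3 reads in WT and 2, 3 and 7 without hnRNPL, and *Ifng* had 0, 0 and 0 in WT and 2, 1 and 0. None was high enough to be tested, and with so few reads a difference was not detectable. Poly(A) libraries of sorted B cells at 1 time say nothing of interferon made earlier or by other cells.

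The receptor chains other than *Ifnlr1* and the kinases were plainly expressed. *Ifnar1*, a chain of the type I receptor, had 2861 ± 119 normalized counts in WT libraries and 3317 ± 85.8 without hnRNPL (SD, n = 3), a log2 change of 0.21 (95% interval 0.0076 to 0.42, adjusted p = 0.168). The other chain *Ifnar2* changed by -0.037 (95% interval -0.28 to 0.20, adjusted p = 0.849). For the type II receptor, *Ifngr1* changed by -0.082 (95% interval -0.32 to 0.15, adjusted p = 0.640) and *Ifngr2* by 0.0022 (95% interval -0.20 to 0.21, adjusted p = 0.990). None of these 4 was called. *Il10rb* changed by 0.24 (95% interval -0.11 to 0.60, adjusted p = 0.356). *Ifnlr1*, the specific chain of the type III receptor, was called higher, from 18.8 ± 2.25 to 36.0 ± 5.01 normalized counts, a log2 change of 0.90 ± 0.304 (SE, adjusted p = 0.0973), but at this low level it was called in only 5 of 18 alternative settings.

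Of the kinases, *Jak2*, which serves the type II receptor, read 4082, 3880.4 and 3858 in WT libraries and 5609, 5105 and 5256 without hnRNPL, a log2 change of 0.43 ± 0.0894 (SE, adjusted p = 0.0190) with no overlap, under the limit of fold. *Jak1* changed by -0.051 (95% interval -0.28 to 0.17, adjusted p = 0.774) and *Tyk2* by 0.26 (95% interval -0.045 to 0.57, adjusted p = 0.251). Thus neither chain of the type I receptor and neither of its kinases *Jak1* and *Tyk2* was called.

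**Figure D4:**
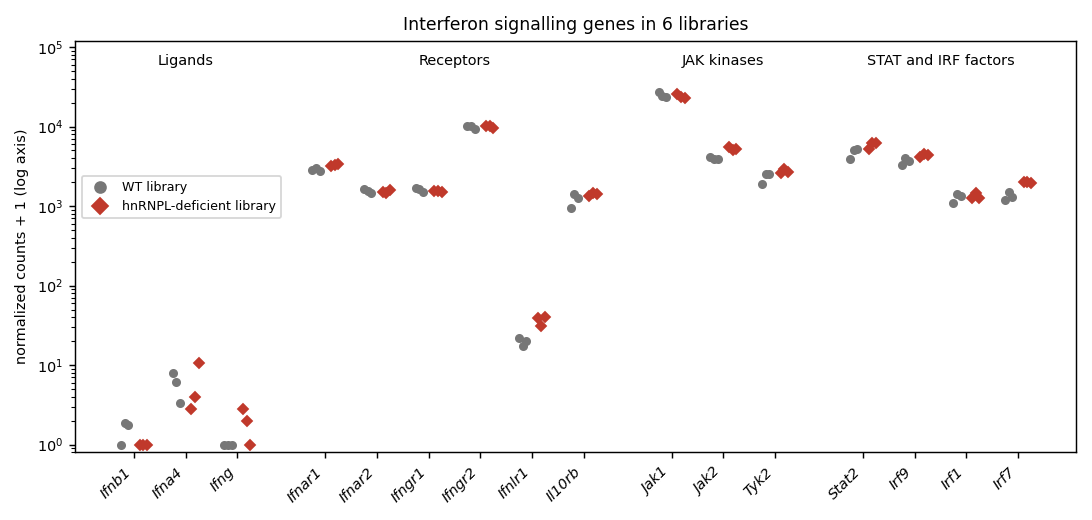
Normalized counts + 1 (log axis) of interferon genes, receptors, JAK kinases and STAT or IRF factors in the 6 libraries, WT in grey and hnRNPL-deficient in red. The interferon genes lie near the bottom of the scale in all libraries. The receptor chains other than *Ifnlr1*, the kinases and the factors lie higher, up to *Jak1* at 25058 ± 1814 in WT. On this axis the groups lie close together, although *Irf7* and *Ifnlr1* were called higher. The groups of *Irf7*, *Irf9*, *Stat2* and *Jak2* did not overlap.

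The rest of the pathway was counted from 141 further genes, of which 138 were in the table and 110 were tested. Of these, 15 were called lower (13.6%, against 4.08% of all genes tested) and 7 higher (6.36%, against 7.28%), with a median log2 fold change of -0.15. The count of lower calls was 7, 9 and 9 without WT library 1, WT library 3 and hnRNPL-deficient library 2, and that of higher calls was 4 without WT library 1 or WT library 3. Among 9 inhibitors of the pathway only *Socs3*, an inhibitor of cytokine receptors, was called, falling from 1102 ± 42.3 to 650.1 ± 165 normalized counts (SD, n = 3), a log2 change of -0.79 ± 0.192 (SE, adjusted p = 0.0334). Among 16 tested genes that act upstream of interferon production, *Tlr3*, which senses viral dsRNA, was called lower at -0.91 ± 0.237 (SE, adjusted p = 0.0424). *Tlr4*, the receptor for the LPS in these cultures, was called lower at -0.68 ± 0.229 (SE, adjusted p = 0.0969) and was called in 9 of 18 alternative settings.

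Among 75 further interferon-stimulated genes, 12 were called lower (16%, against 4.08% of all genes tested) and 6 higher (8%, near the 7.28% of all genes tested). *Ifi209* belongs to the family of DNA-binding proteins that includes *Aim2*. It had 21798, 17885 and 18861 normalized counts across WT and 7279, 6504 and 9250.5 across hnRNPL-deficient libraries, a log2 change of -1.36 ± 0.143 (SE, adjusted p = 0.00123). *Ddx60*, a helicase linked to RIG-I, changed by -0.90 ± 0.130 (SE, adjusted p = 0.00444), *Sp140*, a chromatin reader, by -0.79 ± 0.0916 (SE, adjusted p = 0.00191), and *Ly6a*, which encodes the surface protein Sca-1, by -0.77 ± 0.0860 (SE, adjusted p = 0.00162). The other 8 called lower were *Oas1c*, *Oas1g*, *Ifitm3*, *Ifi207*, *Ifi214*, *Aim2*, *Gbp7* and *Mlkl*. The count of *Oas1g* is uncertain, since 40.9% of the stretches of 100 bases in *Oas1a* transcripts also occur in it. The largest rise among those called was that of *Ifitm2*, which encodes a membrane protein that hinders virus entry, from 311, 348 and 358 in WT to 951, 899 and 773, a log2 change of 1.36 ± 0.142 (SE, adjusted p = 0.00116). Its relative *Ifitm3* changed by -0.78 ± 0.191 (SE, adjusted p = 0.0344). *Oas1b* rose at 0.74 ± 0.212 (SE, adjusted p = 0.0591) while *Oas1c* fell at -0.72 ± 0.135 (SE, adjusted p = 0.0133). *Ifi27*, *Lgals3bp* and *Casp4* were also called higher.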

How the data were processed

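Activated splenic B cells from 3 WT mice and from 3 hnRNPL-deficient mice were grouped by the submitters' labels. According to the methods of the study, the authors trimmed paired reads of poly(A) RNA with fastp 0.23.1, aligned them to mm10 with STAR 2.7.9a, counted them per gene with featureCounts in strand-specific mode on GENCODE annotation, and divided the counts by DESeq2 (version 1.38.2) size factors. Such deposited values are a signal, called normalized counts here. The deposited table also holds the authors' own comparison, as log2 fold changes with standard errors, a test statistic (a score) and p-values, which was not used.

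Genes that averaged 10 or more normalized counts over the 6 libraries were tested with limma 3.58.1 in R 4.3.3, on log2 values after adding 1, with the variance prior following the mean and Benjamini-Hochberg adjustment over the 17640 genes tested. A fold change on this scale understates the change of low genes. Intervals are 95% limma intervals. The 44 genes, the pathway lists and the tests were chosen with earlier results of these data known. All 44 genes are accounted for. Values in every library are given for genes that were called, for genes with an adjusted p under 0.1, and for the most abundant gene of each family. Of the pathway lists, receptors and kinases are given in any case and other genes only where called, and some genes of these lists are not reported here. Gene pairs for ratios were chosen after their values were seen.

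Deposited values were whole multiples of a step, within 0.02 of a read, for 100% of values. The count tests edgeR 4.0.16 and DESeq2 1.42.0 were added after seeing the data and used the recovered reads of 5 libraries, because the automatic check does not read hnRNPL-deficient library 2. edgeR called 1144 genes higher and 578 lower, and DESeq2 called 1180 and 721. Other alternatives were pseudocounts of 0.5 and 5, no filter or a minimum mean of 50, scaling to equal totals, quantile normalization, no trend, the replicate number as a block, stricter thresholds, each library left out and, added later, *Xist* as a covariate. All tests were tried on simulated data.

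Positions are from GENCODE M21 on GRCm38, the same assembly as mm10, and matched 44 of 44 genes. Promoter windows are from RefSeq on GRCm38.p6. Shared sequence was measured as the percent of stretches of 100 bases that occur in transcripts of another gene. Each library is a mouse as the study describes it, and no batch is given in the labels.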

Additional observations from a re-analysis of the deposited data

How the results depend on the processing

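For the 26 genes that were called, had an adjusted p under 0.1 or were the most abundant of their family, 18 alternatives were run, and 428 of 468 values kept their direction and side of the threshold, 22 lost a call, 4 gained one and 14 changed sign. *Ifit1*, *Oasl1*, *Oasl2*, *Isg15* and *Cxcl10* were called lower in all 18. At an adjusted p under 0.05 and 2-fold, 5 of the 44 genes were called lower and 1 higher (with a pseudocount of 5, also 1 higher), and in the rest of the pathway 1 lower and 1 higher. edgeR called 9 of those pathway genes lower. With each library left out in turn, 9 to 12 of the 44 genes were called lower and 1 to 2 higher, and 7 to 14 of the other pathway genes lower and 4 to 5 higher. Only 1 of the 44 was called higher without WT 3, hnRNPL-deficient 1 or hnRNPL-deficient 2. The median log2 fold change of the 44 ranged from -0.33, without hnRNPL-deficient library 3, to -0.16 with a library left out, and was -0.15 by edgeR.

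The changes of sign were in genes that were not called. *Adar* was at 0.047 on equal totals and 0.11 under quantile normalization, and between -0.13 and 0.11 over all alternatives, with 0.099, 0.0096, 0.049 and 0.038 without WT 2, WT 3, hnRNPL-deficient 1 and hnRNPL-deficient 3. *Mx1* was between -0.38 and 0.17 with a library left out (0.061, 0.0061 and 0.17 without WT 2, WT 3 and hnRNPL-deficient 1) and at 0.011 by edgeR. *Samd9l* was at 0.051 under quantile normalization, 0.024 by edgeR and 0.000488 by DESeq2. *Xaf1* was between -0.094, without hnRNPL-deficient 3, and 0.22. The cause was not tested.

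The labels do not say whether replicate numbers pair the samples, and the correlations did not settle it. Each hnRNPL-deficient library correlated best with the WT library of its own number, at 0.429, 0.320 and 0.0663. For number 3 this was close to the value with WT 1 (0.0501), and WT 3 correlated best with hnRNPL-deficient 2 (0.305). With the replicate number as a block, 11 of the 44 genes were called lower and 2 higher, and 1755 genes higher and 1018 lower of all tested, against 1284 and 719 without the block. In the rest of the pathway, 17 were called lower and 8 higher, and the median of the 44 stayed at -0.21. Across all genes, 610 were called higher and 216 lower at the stricter thresholds, and 830 and 478 without WT 3. With 3 libraries a group, the 95% intervals of *Mx1*, *Mx2*, *Oas2*, *Ifit3*, *Ifit3b*, *Gbp2* and *Parp12* hold 0 and reach past 1.5-fold, so a change of that size could not be told from none in them.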
